A study of Mus musculus with 24 samples.

Results

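The genes described here are 10 genes for secreted vascular signals and their regulator: the peptide hormone genes Apln (apelin), Adm (adrenomedullin) and Edn1 (endothelin 1), the glycoprotein hormone genes Stc1 and Stc2 (stanniocalcins), the angiopoietin genes Angpt1 and Angpt2, the angiopoietin-like genes Angptl2 and Angptl4, and Ptprb, a receptor tyrosine phosphatase. They were chosen by symbol, with earlier results of these libraries known, and each symbol matched exactly 1 of the 45706 gene IDs of the count table. The 24 RNA-seq libraries came from mouse embryonic fibroblasts, which are cultured connective tissue cells, of E13.5 embryos. The groups were WT, Vhl, Rassf1a and Vhl/Rassf1a cells, the last named for both genes, and each genotype had 3 libraries named Cre, labelled KO, and 3 named GFP, labelled control. Cre is a recombinase that cuts out DNA between its target sites, and GFP is a fluorescent protein used as its control. The labels give neither the altered exons, nor how Cre or GFP was brought into the cells, nor the number of embryos or cultures behind the 3 libraries of a group. The p-values therefore measure the spread between these libraries, which may be technical. In such bulk samples, fewer cells of a type and less RNA per cell cannot be told apart.

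As background, the Vhl protein targets hypoxia-inducible factors for breakdown by the proteasome, and genes for vascular hormones are among the classic targets of these factors. The peptides act on G protein-coupled receptors on vessel cells, where apelin and adrenomedullin relax vessels and endothelin 1 constricts them. Angiopoietins act on the receptor tyrosine kinase Tek of endothelial cells, and Ptprb removes phosphate from it. Stanniocalcins are secreted glycoproteins, and Stc2 is best known for blocking the protease Pappa.

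Vhl itself fell with Cre from 26.7 CPM ± 0.972 to 2.57 CPM ± 0.257 in Vhl cells (mean ± SD, n = 3 each, as for all means here). CPM are counts scaled to library size. A gene is said to rise, fall or pass the threshold where its p, adjusted over all genes tested by the Benjamini-Hochberg method, was under 0.05. The Vhl level of Vhl/Rassf1a cells was 22.0 CPM ± 1.59 in GFP and 2.10 CPM ± 0.523 in Cre libraries. In Rassf1a cells Rassf1 was at 27.9 CPM ± 2.90 (GFP) and 26.6 CPM ± 1.25 (Cre). In Vhl/Rassf1a cells it rose with Cre, from 32.6 CPM ± 3.95 to 45.2 CPM ± 2.11 (log2 fold change 0.47, adjusted p = 0.000281 by edgeR), and it rose in Vhl cells from 26.6 CPM ± 2.49 to 43.7 CPM ± 1.00 (0.72, adjusted p = 9.51e-07 by edgeR). This count includes every form of the gene, so it does not check the Rassf1a label. Library totals were 29.9 to 55.8 M counts. Replicate 1 of Rassf1a GFP and replicate 2 of Vhl/Rassf1a GFP stood apart from the other libraries of their groups: their deviations had SDs of 0.27 and 0.32 on the log2 scale over 9592 genes, against 0.079 to 0.19 elsewhere, and correlated with each other at 0.908 across genes, which are not independent replicates. The 10 fibroblast markers summed to 21537 to 34224 CPM in every library. The 11 endothelial markers summed to only 15.4 to 20.9 CPM, with Pecam1, Cdh5, Cldn5, Sox17 and Robo4 under 1 CPM in all 24 libraries. The design note of the series names renal proximal tubule cells, and of 8 markers of that cell type 5, Slc34a1, Slc5a2, Slc22a6, Slc5a12 and Kap, were under 1 CPM throughout, with Kap at 0 counts in all libraries. The sum of the 8 was 187 to 367 CPM, most of it from Aqp1, a water channel that other cell types also make. The 3 tested, Lrp2, Cubn and Aqp1, all changed with Cre in Vhl and Vhl/Rassf1a cells. Over all genes tested, 17.4% rose and 18.7% fell in Vhl cells, and 14.9% and 14.8% in Vhl/Rassf1a cells. Lrp2 rose by 1.85 and 0.80 on the log2 scale and Cubn by 0.47 and 0.32, while Aqp1 fell by 0.27 and 0.38. Aqp1 also fell with Cre in WT cells (-0.41), where 0.428% of all genes fell.

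For 5 of the 10 genes a promoter window was at hand, 250 bases before to 50 bases after the start site, from RefSeq on GRCm38.p6. No entry was found for Angpt1, Angpt2, Angptl4, Stc1 and Ptprb. These windows are shown because the factors that Vhl marks for breakdown bind DNA at the core letters ACGTG or GCGTG, which were searched on both strands; matches stand in capitals, and a match on the other strand reads CACGT or CACGC. Adm lies at chr7:110627407-110627706 on the plus strand, Edn1 at chr13:42301226-42301525 on the plus strand, Stc2 at chr11:31370012-31370311 on the minus strand and Apln at chrX:48034804-48035103 on the minus strand.
Adm: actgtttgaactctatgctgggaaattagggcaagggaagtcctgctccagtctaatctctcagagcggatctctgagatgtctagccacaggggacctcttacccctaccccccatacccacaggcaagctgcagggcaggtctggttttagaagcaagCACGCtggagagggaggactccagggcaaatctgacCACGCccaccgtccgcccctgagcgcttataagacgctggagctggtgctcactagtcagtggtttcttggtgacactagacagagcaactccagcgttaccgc
Edn1: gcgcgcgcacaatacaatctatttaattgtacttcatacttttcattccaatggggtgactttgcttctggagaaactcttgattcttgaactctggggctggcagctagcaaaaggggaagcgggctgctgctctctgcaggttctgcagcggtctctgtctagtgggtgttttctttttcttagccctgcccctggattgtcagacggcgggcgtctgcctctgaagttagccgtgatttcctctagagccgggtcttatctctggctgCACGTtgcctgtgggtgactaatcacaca
Stc2: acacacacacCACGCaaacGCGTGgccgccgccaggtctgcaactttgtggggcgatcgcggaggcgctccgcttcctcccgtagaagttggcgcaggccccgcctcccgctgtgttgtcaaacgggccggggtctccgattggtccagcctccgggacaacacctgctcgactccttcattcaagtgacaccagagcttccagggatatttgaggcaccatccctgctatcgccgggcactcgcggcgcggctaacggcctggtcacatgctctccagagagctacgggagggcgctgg
Apln: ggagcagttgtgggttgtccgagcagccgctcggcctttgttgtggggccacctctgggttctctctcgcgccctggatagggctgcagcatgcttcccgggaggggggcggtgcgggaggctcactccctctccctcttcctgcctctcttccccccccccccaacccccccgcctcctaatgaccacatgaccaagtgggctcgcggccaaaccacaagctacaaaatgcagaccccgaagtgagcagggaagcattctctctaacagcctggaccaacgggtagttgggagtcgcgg
The Adm window holds 2 matches of GCGTG, at -90 and -54 from the start site, and the Stc2 window holds 2, at -240 and -231. In the Edn1 window the 1 match is ACGTG at 21, after the start. Neither the Apln window nor that of Angptl2, which is not shown, holds a match, and none of the 5 holds CACGTG, in which ACGTG overlaps itself on the other strand. Among all 32851 promoter windows of this length, 43.8% hold at least 1 of these motifs and 20.6% hold at least 2, so the windows of Adm, Edn1 and Stc2 are of a common kind.

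The genes differed widely in level. Divided by total exon length, mean CPM per kb over the 24 libraries was highest for Angptl2 at 86.9 and Adm at 64.8, followed by Apln at 19.1. It was 6.38 for Stc1, 6.30 for Stc2, 3.56 for Angptl4, 3.48 for Ptprb, 3.37 for Edn1, 3.31 for Angpt2 and 1.19 for Angpt1. Between group means, Stc2 had the widest range, 6.75-fold between its lowest and highest group, and Angptl2 had the narrowest, 1.41-fold. Levels below are CPM of a single gene and are compared only between groups.

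Apln (ENSMUSG00000037010, GRCm38 chromosome X, 48025146 to 48034853, minus strand) encodes the precursor of apelin. Its CPM values in the 3 libraries were 19.0, 22.7 and 25.0 in Vhl GFP and 92.7, 97.8 and 94.7 in Vhl Cre. They were 79.7, 82.4 and 74.5 in Vhl/Rassf1a GFP and 122, 121 and 119 in Vhl/Rassf1a Cre. In both genotypes every Cre library stood above every GFP library, but from very different starting levels. The rise was 4.27-fold in Vhl cells (log2 fold change 2.09, SE 0.092) and 1.53-fold in Vhl/Rassf1a cells (0.61, SE 0.086). In WT cells Apln went the other way, from 55.2, 52.3 and 61.7 with GFP to 41.5, 40.8 and 34.7 with Cre, also without overlap. That fall was 0.53 on the log2 scale (SE 0.089, adjusted p = 0.00195, edgeR's quasi-likelihood test). Rassf1a libraries held 41.3, 37.6 and 33.0 with GFP and 33.2, 29.97 and 31.2 with Cre, which overlapped (-0.25, 95% interval -0.43 to -0.06, adjusted p = 0.492 by edgeR).

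Apln is on chromosome X, and genes that differ between male and female cells also differed between groups. Xist, expressed from the inactive X of female cells, was at 262 CPM ± 7.55 in Vhl GFP and 171 CPM ± 26.3 in Vhl Cre, while the Y-linked Ddx3y was at 41.0 CPM ± 0.939 and 58.2 CPM ± 2.78. Between Vhl/Rassf1a GFP and Cre, Xist was at 289.9 CPM ± 81.4 and 319 CPM ± 21.4, and Ddx3y at 16.5 CPM ± 3.59 and 19.6 CPM ± 0.852. WT GFP and Cre had Xist at 155 CPM ± 20.8 and 158 CPM ± 27.0 and Ddx3y at 50.8 CPM ± 3.10 and 51.9 CPM ± 4.78; Rassf1a GFP and Cre had Xist at 265 CPM ± 74.1 and 299.5 CPM ± 17.2 and Ddx3y at 23.7 CPM ± 4.34 and 23.3 CPM ± 1.42. With Cre in Vhl cells Xist fell (log2 fold change -0.62), while Ddx3y (0.51) and the Y-linked Eif2s3y (0.53) rose. None of them passed the threshold with Cre in WT, Rassf1a or Vhl/Rassf1a cells. These genes were chosen after their values were seen. Their part in the differences of Apln, or of the other genes described here, was not tested.

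Adm (ENSMUSG00000030790, chromosome 7, 110627661 to 110629820, plus strand) encodes adrenomedullin. Vhl GFP libraries held 71.5, 79.0 and 73.5 CPM and Vhl Cre libraries 175, 196 and 187. Vhl/Rassf1a GFP libraries held 84.8, 98.2 and 80.2 and the matching Cre libraries 169.8, 161 and 177. The 6 libraries with Cre and altered Vhl were the highest of all 24, and the 2 Cre groups overlapped each other. Adm rose 2.49-fold in Vhl cells (log2 fold change 1.32, SE 0.08) and 1.93-fold in Vhl/Rassf1a cells (0.95, SE 0.08). The other 6 groups had means between 71.9 CPM in Rassf1a Cre and 93.6 in WT GFP. Cre and GFP libraries of WT cells overlapped (log2 fold change -0.17, 95% interval -0.34 to -0.0058), as did those of Rassf1a cells (-0.015, -0.18 to 0.15).

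Edn1 (ENSMUSG00000021367, chromosome 13, 42301476 to 42307990, plus strand) encodes endothelin 1, a vasoconstrictor. It was read at 3.34, 3.88 and 3.24 CPM in Vhl GFP and at 15.4, 17.0 and 15.0 in Vhl Cre. In Vhl/Rassf1a cells it was at 4.97, 4.36 and 4.47 with GFP and 10.7, 12.4 and 10.3 with Cre. No Cre library overlapped a GFP library in either genotype, and Vhl Cre was above Vhl/Rassf1a Cre in every library. These are rises of 4.53-fold (log2 fold change 2.18, SE 0.13) and 2.42-fold (1.27, SE 0.12). WT cells kept an intermediate level, 6.90 CPM ± 1.01 in GFP libraries and 6.98 CPM ± 1.20 in Cre libraries (log2 fold change 0.016, 95% interval -0.24 to 0.27). Rassf1a cells were lower, at 3.85 CPM ± 0.207 and 4.88 CPM ± 0.502; their Cre libraries lay above their GFP libraries, but the difference of 0.35 (SE 0.13) did not pass the threshold (adjusted p = 0.508 by edgeR).

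**Figure D1:**
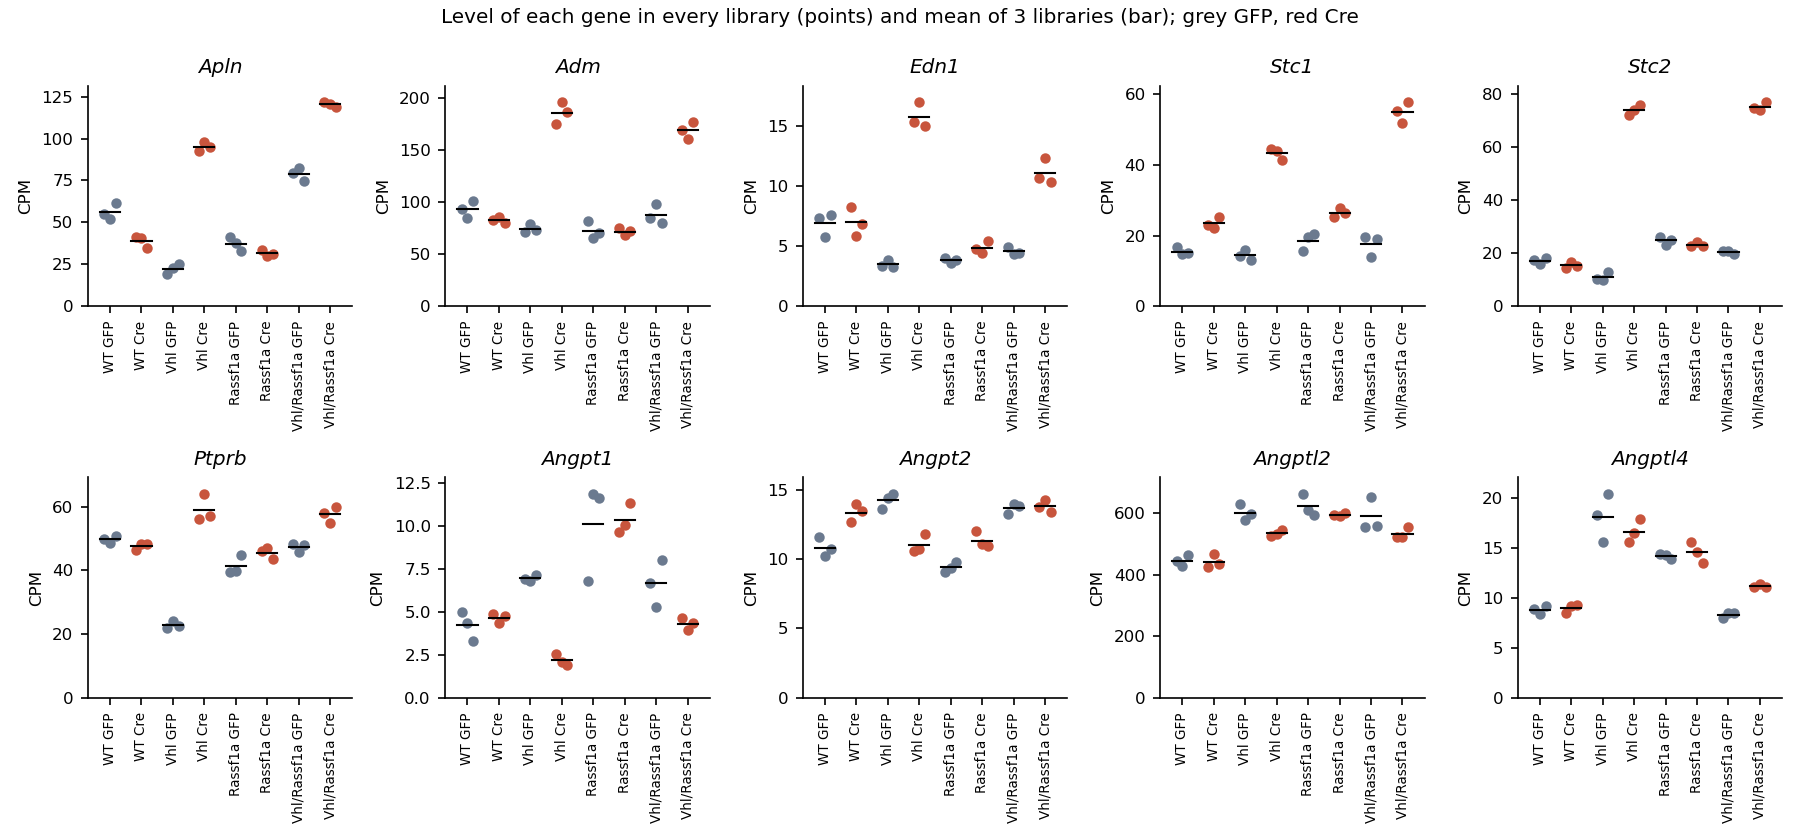
CPM (vertical axes, linear from 0) of the 10 genes in 24 libraries in 8 groups; points are libraries, black bars the means of 3. Stc2 stands at 72.1 to 76.7 CPM in the 6 libraries with Cre and altered Vhl and at or below 26.2 CPM in all others.

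Stc2 (ENSMUSG00000020303, chromosome 11, 31357307 to 31370074, minus strand) showed the largest fold among the 10 genes. Its CPM values were 10.3, 10.0 and 13.1 in Vhl GFP and 72.1, 74.0 and 75.6 in Vhl Cre. They were 20.6, 20.9 and 19.8 in Vhl/Rassf1a GFP and 74.8, 73.7 and 76.7 in Vhl/Rassf1a Cre. The 2 Cre groups overlapped, so their end levels did not differ beyond the spread, while the GFP groups did not overlap. The log2 fold changes were 2.73 (SE 0.081, 6.62-fold) and 1.88 (SE 0.077, 3.67-fold). GFP and Cre libraries overlapped in WT cells (17.1 CPM ± 1.21 and 15.4 CPM ± 1.15) as well as in Rassf1a cells (24.8 CPM ± 1.65 and 23.2 CPM ± 0.880).

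Stc1 (ENSMUSG00000014813, chromosome 14, 69029238 to 69041804, plus strand), the other stanniocalcin gene, had higher levels with Cre in all 4 genotypes. Vhl libraries held 14.3, 16.0 and 13.1 CPM with GFP and 44.5, 43.8 and 41.4 with Cre, and Vhl/Rassf1a libraries held 19.7, 14.0 and 18.9 and 55.3, 51.9 and 57.7. Rises were 2.99-fold (log2 fold change 1.58, SE 0.11) and 3.15-fold (1.65, SE 0.11). WT libraries went from 16.8, 14.7 and 15.0 to 22.9, 22.2 and 25.2 and Rassf1a libraries from 15.7, 19.5 and 20.5 to 25.1, 27.7 and 26.4, each pair of groups without overlap. Stc1 thus also rose where Vhl was not altered, by 0.60 in WT cells (SE 0.11, adjusted p = 0.00434) and by 0.50 in Rassf1a cells (SE 0.11, adjusted p = 0.0304, both by edgeR). The Rassf1a call was lost when any of Rassf1a GFP replicates 1 and 2 or Rassf1a Cre replicates 1, 2 and 3 was left out (adjusted p = 0.0664 to 0.198). Without both libraries that stood apart it was 0.41 (adjusted p = 0.00546).

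Ptprb (ENSMUSG00000020154, chromosome 10, 116275523 to 116389535, plus strand), also known as vascular endothelial protein tyrosine phosphatase, was at 22.0 to 64.1 CPM in these fibroblasts. It stood at 22.0, 24.2 and 22.5 CPM in Vhl GFP, lower than in any other group, and at 56.0, 64.0 and 57.0 in Vhl Cre. In Vhl/Rassf1a cells it was at 48.4, 45.7 and 48.0 with GFP and 58.0, 54.8 and 60.03 with Cre. Vhl Cre and Vhl/Rassf1a Cre overlapped, while all Vhl GFP libraries lay under all Vhl/Rassf1a GFP libraries. Ptprb rose 2.58-fold in Vhl cells (log2 fold change 1.37, SE 0.061) and 1.22-fold in Vhl/Rassf1a cells (0.28, SE 0.059). Cre against GFP gave -0.066 in WT cells (95% interval -0.19 to 0.058) and 0.14 in Rassf1a cells (0.014 to 0.26), neither past the threshold.

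Angpt1 (ENSMUSG00000022309, chromosome 15, 42424723 to 42676977, minus strand), the activating ligand of Tek, fell in both genotypes with altered Vhl. It was at 6.94, 6.82 and 7.13 CPM in Vhl GFP and 2.56, 2.08 and 1.90 in Vhl Cre, and at 6.67, 5.29 and 8.02 in Vhl/Rassf1a GFP and 4.63, 3.96 and 4.35 in Vhl/Rassf1a Cre. All Cre libraries lay under all GFP libraries of the same genotype. The fall was 3.18-fold in Vhl cells (log2 fold change -1.67, SE 0.19) and 1.53-fold in Vhl/Rassf1a cells (-0.62, SE 0.18). Without the 2 libraries that stood apart the second value was -0.76, and without Vhl/Rassf1a GFP replicate 3 it was -0.45 and the call was lost (adjusted p = 0.0869 by edgeR). WT libraries overlapped at 5.00, 4.34 and 3.33 and 4.85, 4.37 and 4.74. Rassf1a libraries were at 6.81, 11.9 and 11.6 with GFP, the lowest being replicate 1, and at 9.62, 10.0 and 11.4 with Cre, also overlapping.

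Angpt2 (ENSMUSG00000031465, chromosome 8, 18690263 to 18741562, minus strand), which can block Tek signalling depending on context, varied little. Group means ran from 9.41 CPM ± 0.364 in Rassf1a GFP to 14.2 CPM ± 0.580 in Vhl GFP. With Cre it fell 1.29-fold in Vhl cells, from 13.6, 14.4 and 14.7 to 10.6, 10.7 and 11.8, and was 0.012 on the log2 scale in Vhl/Rassf1a cells (95% interval -0.13 to 0.15). In WT cells it rose by 0.30 (SE 0.068, adjusted p = 0.0247 by edgeR). This call was lost without WT GFP replicate 2 or 3 or WT Cre replicate 2 or 3 (adjusted p = 0.115 to 0.138). It was also lost with no filter on low counts (adjusted p = 0.262) and with only the groups compared (adjusted p = 0.11, all by edgeR). Mcph1 lies on the opposite strand over Angpt2, at group means of 16.5 to 20.4 CPM. The strand setting of the counting is not given, so reads in bases that these genes share cannot be told apart.

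Angptl2 (ENSMUSG00000004105, chromosome 2, 33216069 to 33247717, plus strand), a secreted protein linked to inflammation, had the highest levels per length. It was at 602 CPM ± 25.9 in Vhl GFP and 536 CPM ± 9.29 in Vhl Cre, a fall of 0.17 on the log2 scale. This call was lost without Vhl GFP replicate 1 or Vhl Cre replicate 1. In Vhl/Rassf1a cells it was at 590.3 CPM ± 55.1 and 534 CPM ± 18.1 (-0.15, 95% interval -0.26 to -0.028), and it was -0.062 without the libraries that stood apart. It did not pass the threshold there, but did under 6 of 30 alternatives: with no filter on low counts and without WT Cre replicate 2, Vhl GFP replicate 1, Vhl/Rassf1a GFP replicate 1 or 3 or Vhl/Rassf1a Cre replicate 3. WT cells were lowest, at 446 CPM ± 18.1 in GFP and 442 CPM ± 22.7 in Cre libraries.

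Angptl4 (ENSMUSG00000002289, chromosome 17, 33773750 to 33781830, minus strand), an inhibitor of lipoprotein lipase, passed the threshold as higher with Cre in Vhl/Rassf1a cells and in no other genotype, and it started there from its lowest level. Its libraries went from 7.99, 8.50 and 8.46 CPM to 11.1, 11.4 and 11.1 (log2 fold change 0.42, SE 0.085). In Vhl cells GFP and Cre libraries overlapped at a higher level, 18.3, 15.6 and 20.4 and 15.6, 16.5 and 17.9 (-0.13, 95% interval -0.29 to 0.041). Without Vhl GFP replicate 2 the Vhl difference passed as lower (-0.22, adjusted p = 0.0308 by edgeR). The differences in WT and Rassf1a cells were 0.03 and 0.035, neither past the threshold.

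**Figure D2:**
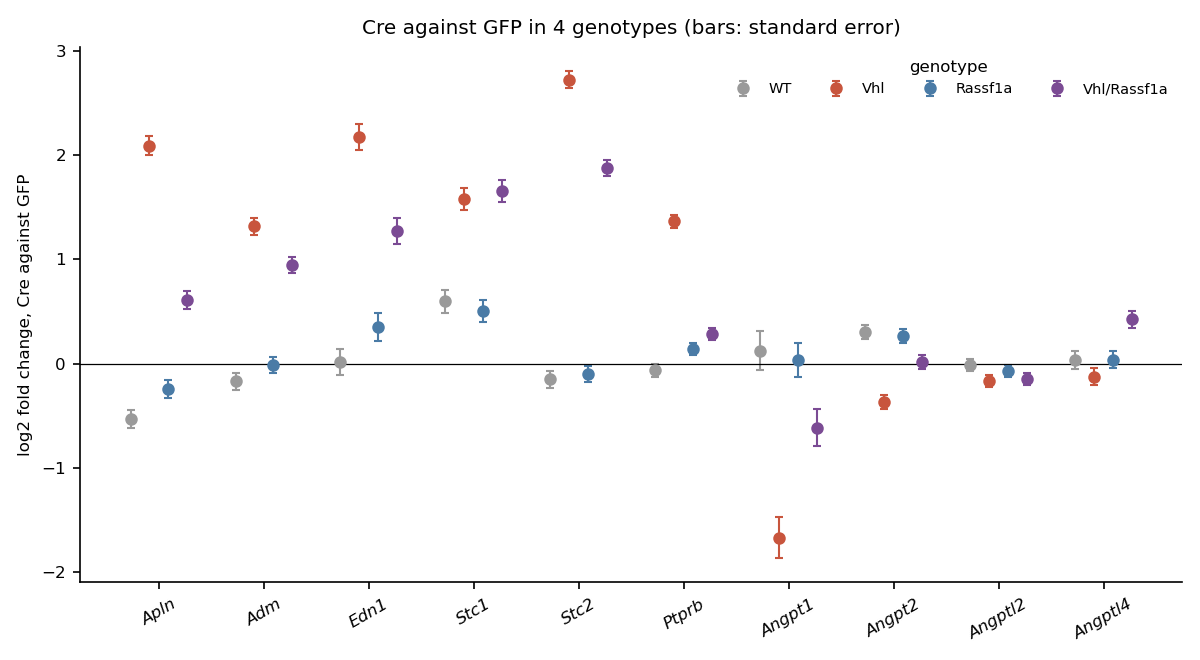
Log2 fold change of Cre against GFP (vertical axis) for each of the 10 genes in 4 genotypes; points are estimates from 3 against 3 libraries, bars standard errors. Stc1 lies above 0 in all 4 genotypes, while Apln lies above 0 in the 2 genotypes with altered Vhl and below 0 in WT and Rassf1a cells.

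Over the 10 genes, all of which passed the filter on low counts, 6 rose and 3 fell with Cre in Vhl cells. Over all 16573 genes tested 17.4% and 18.7% rose and fell. In Vhl/Rassf1a cells 7 rose and 1 fell (background 14.9% and 14.8%). Since the genes were proposed with such values known, these counts describe the choice, and nothing is read from them. The median log2 fold change of the 10 was 1.34 in Vhl cells and 0.52 in Vhl/Rassf1a cells, against -0.011 and 0.00027 over all genes. In WT cells 2 rose and 1 fell, where 0.833% and 0.428% of all genes did, and in Rassf1a cells 1 rose and none fell, where 0.187% and 0.205% did. In both of these the median of the 10 was near 0, at 0.0015 and 0.033. Which values guided the choice is not recorded, so nothing is read from the WT and Rassf1a counts either.

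Cre effects were then set against the WT effect. In Vhl cells 6 of the 10 were more positive and 2 more negative than in WT cells (background 10.7% and 12.5%), and in Vhl/Rassf1a cells 7 and 1 were (background 7.41% and 7.4%). The 1 was Angpt2 (-0.29), a call lost under 21 of 30 alternatives (adjusted p = 0.0508 to 0.294), 17 of them with a single library left out. Among the 7, Angptl4 (0.39) lost its call under 6: with no filter on low counts and without WT GFP replicate 1 or 3, WT Cre replicate 1, Vhl/Rassf1a GFP replicate 1 or Vhl/Rassf1a Cre replicate 2 (adjusted p = 0.0563 to 0.087). Angpt1, not among the 8 (-0.74), passed under 6. The largest differences were those of Stc2, 2.88 in Vhl and 2.03 in Vhl/Rassf1a cells. Those of Apln were 2.62 and 1.14, larger than its Cre effects in the same cells by the size of its fall in WT cells. For Stc1 they were 0.98 and 1.06, smaller by its rise in WT cells. No gene of the 10 differed between Rassf1a and WT cells in its Cre effect by edgeR (background 0.00603% and 0%), with 2 at an unadjusted p under 0.05, and DESeq2 also called 0. The 2 were Apln (0.29, 95% interval 0.024 to 0.55) and Ptprb (0.20, 0.029 to 0.38).

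The sets of GFP libraries already differed between genotypes. Against WT GFP, 4 of the 10 were higher and 5 lower in Vhl GFP (background 17.2% and 14.9%). In Rassf1a GFP 4 were higher and 5 lower (background 9.39% and 6.68%), and in Vhl/Rassf1a GFP 5 were higher and 1 lower (background 6.86% and 4.68%). These 3 comparisons share the WT GFP libraries. Genes that differ between the sexes also differed here: Xist was at 155 CPM in WT GFP against 262, 265 and 289.9 in Vhl, Rassf1a and Vhl/Rassf1a GFP, and Ddx3y at 50.8 against 41.0, 23.7 and 16.5. Their part in these differences was not tested. Apln and Ptprb were 2.53-fold and 2.17-fold lower in Vhl GFP than in WT GFP, and Angptl4 was 2.06-fold higher. In Rassf1a GFP, Angpt1 was 2.37-fold higher than in WT GFP (log2 1.25, adjusted p = 1.76e-05) and Edn1 was 1.79-fold lower (-0.84, adjusted p = 4.83e-05, both by edgeR). Stc2 was 1.53-fold lower in Vhl GFP but 1.45-fold higher in Rassf1a GFP, where its adjusted p was 3.05e-05. With only the groups compared in the fit, 2 of the 10 instead of 6 differed between Vhl/Rassf1a GFP and WT GFP. The Rassf1a GFP call of Angpt2 (-0.20) was lost under 10 of 30 alternatives. In Vhl/Rassf1a GFP the calls of Stc2 (0.26) and Angpt1 (0.64) were lost under 9 and 5 (adjusted p = 0.0536 to 0.201 and 0.0586 to 0.148).

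These starting levels enter the next comparison, of the Cre effect between Vhl/Rassf1a and Vhl cells. It was more positive in Vhl/Rassf1a cells for 3 of the 10 and more negative for 4 (background 3.44% and 2.65%). Apln had the largest difference, -1.48 (SE 0.12), then Ptprb with -1.08 (SE 0.085), Edn1 with -0.91 and Stc2 with -0.85. More positive were Angpt1 (1.06), Angptl4 (0.55) and Angpt2 (0.38). Stc1 differed by 0.076 (95% interval -0.23 to 0.38) and Angptl2 by 0.023 (-0.14 to 0.19). For Adm the difference was -0.37 (-0.60 to -0.14), which did not pass the threshold, but did under 11 of 30 alternatives. These calls are edgeR's, but as the genes were proposed with their Vhl values known, nothing is read from their number or direction. The call of Angpt1 was lost without Vhl Cre replicate 2 or 3 or Vhl/Rassf1a Cre replicate 1 (adjusted p = 0.052 to 0.0552 by edgeR), and that of Angpt2 with no filter on low counts or with only the groups compared.

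Start and end levels of both genotypes were compared directly, in a pair of comparisons added after the data were seen. With GFP, 5 of the 10 were higher and 1 lower in Vhl/Rassf1a than in Vhl cells (background 13.2% and 13.6%). Apln was 3.54-fold higher, Ptprb 2.07-fold and Stc2 1.83-fold, while Angptl4 was 2.18-fold lower. The other 2 were Edn1 (0.40) and Adm (0.23). Edn1 lost its call with only the groups compared and without Vhl GFP replicate 1 or 3 or Vhl/Rassf1a GFP replicate 1 or 3 (adjusted p = 0.0548 to 0.136). Adm lost it under 6 alternatives, among them the omission of Vhl GFP replicate 1 or 3, Vhl Cre replicate 3 or Vhl/Rassf1a GFP replicate 2 (adjusted p = 0.0511 to 0.169), and was 0.14 without both libraries that stood apart (adjusted p = 0.11). Stc1 (0.27) passed under 3, at 0.42 without Vhl/Rassf1a GFP replicate 2 (adjusted p = 0.00252, all by edgeR). With Cre, 4 were higher and 2 lower (background 9.75% and 9.07%). Stc2 and Ptprb then differed by 0.023 (95% interval -0.13 to 0.17) and -0.034 (-0.16 to 0.087) on the log2 scale. For these genes the unequal Cre effects thus went with unequal GFP levels and end levels that overlapped. Apln remained 1.27-fold higher in Vhl/Rassf1a Cre, Angpt1 1.98-fold and Stc1 1.27-fold, and Edn1 and Angptl4 were 1.42-fold and 1.49-fold lower. Angpt2 was the other of the 4 higher genes, at 13.8 CPM ± 0.456 in Vhl/Rassf1a Cre and 11.0 CPM ± 0.680 in Vhl Cre. The Stc1 call was lost without Vhl Cre replicate 2 or 3 or Vhl/Rassf1a Cre replicate 1 or 3 (adjusted p = 0.0518 to 0.0887 by edgeR). The added comparisons share libraries with the Cre effects above and are no separate evidence.

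**Figure D3:**
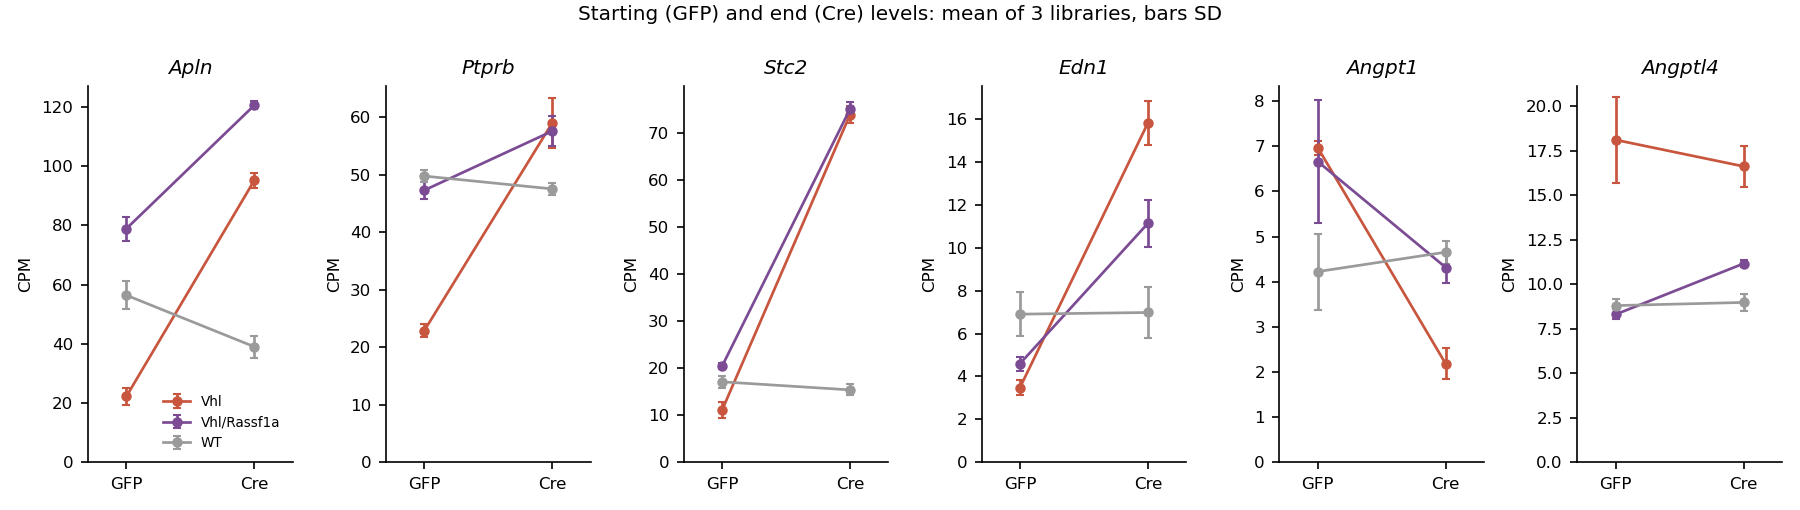
Mean CPM (vertical axes, linear from 0) with GFP and with Cre for 6 of the genes in WT, Vhl and Vhl/Rassf1a cells; bars are SD over 3 libraries. Lines of Ptprb and Stc2 start apart and meet at Cre, where Vhl and Vhl/Rassf1a means are 59.0 and 57.6 CPM for Ptprb and 73.9 and 75.1 CPM for Stc2.

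Partners of these signals were then read from a list chosen for function: receptors, sister ligands, processing enzymes and binding partners. The list was drawn up with earlier results of these libraries known, so its counts and p-values are descriptions. Of its 33 genes, 22 passed the filter on low counts. With Cre 6 rose and 6 fell in Vhl cells (background 17.4% and 18.7%), and 8 rose and 5 fell in Vhl/Rassf1a cells (background 14.9% and 14.8%). Those that rose in WT cells were 2, Pappa and Pappa2, where 0.833% of all genes rose. Only 1, Lpl, rose in Rassf1a cells, where 0.187% of all genes rose. The 5 that fell in Vhl/Rassf1a cells were Ednra, Ednrb, Ramp2, Lpl and Angptl7. Pappa2 and Angptl7 were chosen after their values were seen. Without the libraries that stood apart, 10 rose and 6 fell in Vhl/Rassf1a cells, but the share over all genes was not counted in that fit. Median log2 fold changes of the 22 were 0.016 in Vhl and 0.020 in Vhl/Rassf1a cells, close to those of all genes. Adjusted p-values in this and the next 3 paragraphs are from edgeR's quasi-likelihood test over all genes.

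Among sister ligands, Adm2, which encodes intermedin, a peptide of the adrenomedullin family, rose with Adm. It went from 1.24 CPM ± 0.0992 to 13.6 CPM ± 0.943 in Vhl cells (log2 fold change 3.46, SE 0.17, adjusted p = 2.56e-13). Vhl/Rassf1a cells held 1.55 CPM ± 0.220 with GFP and 8.65 CPM ± 0.766 with Cre (2.47, adjusted p = 9.54e-11). Its Cre effect was smaller in Vhl/Rassf1a cells by 0.99 (SE 0.25, adjusted p = 0.0167). Edn2, a second endothelin gene, was at 0.0235 to 0.0775 CPM in Vhl GFP libraries and 1.31 to 1.45 in Vhl Cre libraries, and at 0.0277 to 0.120 and 0.775 to 1.18 in Vhl/Rassf1a cells (adjusted p = 1.61e-08 and 8.84e-07). Its GFP libraries held at most 4 counts, so no fold is given. Calcb, a calcitonin gene-related peptide gene, also held only few counts, and went from 0.00 to 0.0233 CPM to 0.227 to 0.546 in Vhl/Rassf1a cells (adjusted p = 0.000319). Angpt4, a further angiopoietin gene, fell in Vhl cells from 15.0 CPM ± 1.83 to 7.48 CPM ± 0.498 (-1.01, adjusted p = 4.57e-08) and was at 3.61 CPM ± 0.483 and 3.15 CPM ± 0.134 in Vhl/Rassf1a cells (-0.20, 95% interval -0.45 to 0.05).

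The endothelin receptor genes fell in the cells in which Edn1 rose. Ednra fell with Cre from 13.6 CPM ± 0.892 to 4.15 CPM ± 0.275 in Vhl cells (-1.72, SE 0.12, adjusted p = 1.02e-10). Vhl/Rassf1a GFP libraries had 11.1 CPM ± 0.956 and the Cre libraries 5.56 CPM ± 0.285 (-0.999, adjusted p = 5.26e-07). The fall was larger in Vhl cells, by 0.72 (SE 0.17, adjusted p = 0.00984). Ednrb fell from 3.36 CPM ± 1.11 to 0.691 CPM ± 0.258 and from 5.40 CPM ± 0.888 to 1.83 CPM ± 0.132 (-2.28 and -1.55, adjusted p = 3.22e-07 and 5.72e-06). In WT cells these receptors gave 0.42 (SE 0.11, adjusted p = 0.0568) and -0.41 (SE 0.21, adjusted p = 0.62), neither past the threshold. Under 7 of 30 alternatives Ednra passed it in WT cells, as higher with Cre. The converting enzyme Ece1 did not pass it in any genotype, with 0.0023 in Vhl cells (95% interval -0.13 to 0.13).

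The receptors of adrenomedullin and apelin behaved differently. Calcrl, the receptor that both adrenomedullins use together with a Ramp protein, was at 11.2 CPM ± 0.690 and 11.4 CPM ± 1.27 in Vhl GFP and Cre (0.029, 95% interval -0.33 to 0.39). In Vhl/Rassf1a cells its difference was -0.045 (-0.39 to 0.30), but it was -0.28 (adjusted p = 0.0169) without the libraries that stood apart. Ramp2, a partner of Calcrl for adrenomedullin, was under 1 CPM in all libraries. It fell from 0.310 to 0.329 CPM to 0.0234 to 0.144 in Vhl cells (adjusted p = 0.000655). In Vhl/Rassf1a cells it fell from 0.419 to 0.489 to 0.151 to 0.190 (adjusted p = 0.00324). Ramp3, also on the list but chosen after its values were seen, was at 3.75 to 7.62 CPM over the libraries. It rose with Cre in Vhl/Rassf1a cells. That call was lost with only the groups compared and without Vhl/Rassf1a GFP replicate 1 or 3 or Vhl/Rassf1a Cre replicate 1 or 2 (adjusted p = 0.0824 to 0.172 by edgeR). Ackr3, a scavenging receptor that also binds adrenomedullin, rose from 41.3 CPM ± 1.78 to 74.8 CPM ± 2.47 (0.86, adjusted p = 1.77e-10) and from 21.1 CPM ± 0.325 to 38.9 CPM ± 1.98 (0.88, adjusted p = 3.2e-10). Aplnr, the apelin receptor, had at most 14 counts in any library and was not tested. Of the angiopoietin receptors, Tie1 had at most 2 counts, and Tek was at 0.981 CPM ± 0.167 and 1.19 CPM ± 0.162 in Vhl cells and at 1.20 CPM ± 0.105 and 2.02 CPM ± 0.358 in Vhl/Rassf1a cells. It rose in the latter (0.75, SE 0.18, adjusted p = 0.0026); in Vhl cells the value was 0.27 (95% interval -0.14 to 0.69).

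The protease Pappa, which stanniocalcins inhibit, rose with Cre by 0.48 in Vhl cells (SE 0.073, adjusted p = 1.54e-05) and by 0.65 in Vhl/Rassf1a cells (adjusted p = 4.77e-07). It also rose in WT cells, from 103 CPM ± 5.85 to 133 CPM ± 1.77 (0.36, adjusted p = 0.011), a call lost without WT GFP replicate 1 or 3 or WT Cre replicate 1 or 3 (adjusted p = 0.0632 to 0.112). Lpl, the lipase that Angptl4 inhibits, went from 18.5 CPM ± 1.68 to 13.4 CPM ± 0.724 (-0.46, adjusted p = 0.000868) in Vhl/Rassf1a cells, the genotype in which Angptl4 rose. In Vhl cells Lpl gave -0.12 (95% interval -0.32 to 0.081), and in Rassf1a cells it rose by 0.48 (adjusted p = 0.0186). The Rassf1a call was lost without Rassf1a GFP replicate 1 or 2 or Rassf1a Cre replicate 1 or 2 (adjusted p = 0.0737 to 0.141).

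**Figure D4:**
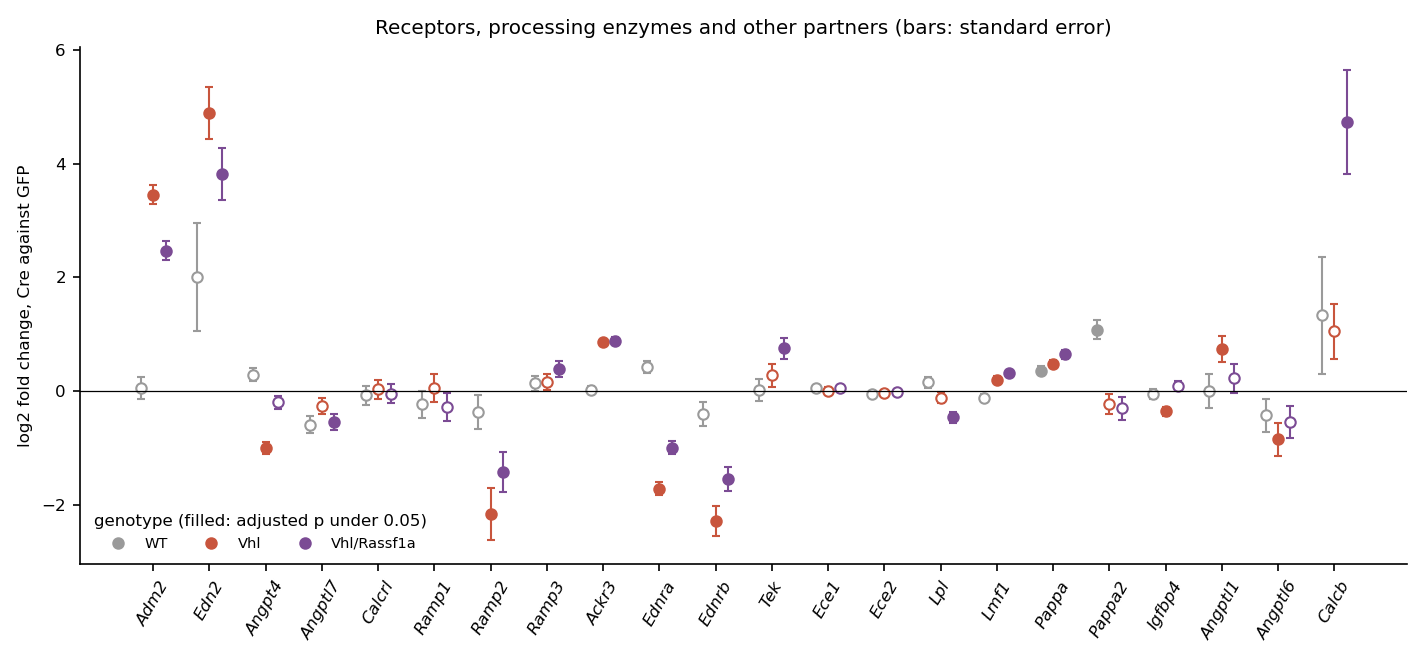
Log2 fold change of Cre against GFP (vertical axis) for the 22 tested partners in WT, Vhl and Vhl/Rassf1a cells; filled points passed the threshold, bars are standard errors. Adm2 and Edn2 lie high and Ednra, Ednrb and Ramp2 low in both genotypes with altered Vhl, while Calcrl stays near 0.

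Because several of these genes are best known from vessels, endothelial and mural markers were read beside them, followed by epithelial and fibroblast markers. Of 8 endothelial markers tested, 5 rose (Cdh5, Kdr, Emcn, Esam and Vwf) and 2 fell (Erg and Egfl7) with Cre in Vhl cells (background 17.4% and 18.7%). Emcn and Esam also rose, and Erg and Egfl7 fell, in Vhl/Rassf1a cells (background 14.9% and 14.8%). Their summed level was 15.8 to 17.3 CPM in Vhl GFP libraries and 19.9 to 20.9 in Vhl Cre libraries, and 17.3 to 19.7 and 19.3 to 20.4 in Vhl/Rassf1a GFP and Cre. For WT GFP and Cre it was 17.3 to 18.0 and 15.9 to 17.7, and for Rassf1a GFP and Cre 15.4 to 19.0 and 15.5 to 16.0. No endothelial marker was at 0 in all libraries. Of 6 mural markers tested, Kcnj8, Notch3 and Des rose in both genotypes and Mcam fell in Vhl/Rassf1a cells. The sum of the 7 mural markers was 319 to 350.1 CPM in Vhl GFP libraries and 353 to 385 in Vhl Cre libraries. It was also higher with Cre, without overlap, in WT cells (360 to 374 and 391 to 416) and in Rassf1a cells (235 to 262 and 268 to 279). In Vhl/Rassf1a cells GFP and Cre sums overlapped, at 254 to 292 and 263 to 272. Epithelial markers had median log2 fold changes of 1.85 in Vhl and 0.85 in Vhl/Rassf1a cells. All 5 tested (Cdh1, Cldn4, Krt8, Krt18 and Krt19) rose with Cre in Vhl cells, and Cldn4, Krt18 and Krt19 rose in Vhl/Rassf1a cells. The sum of the 6 epithelial markers was 37.7 to 38.8 CPM in Vhl GFP and 126 to 146 in the Cre libraries of these cells. It was 75.4 to 97.0 and 194 to 200.9 in Vhl/Rassf1a GFP and Cre, 75.9 to 94.4 and 69.0 to 82.8 in WT GFP and Cre, and 44.3 to 64.1 and 45.7 to 54.7 in Rassf1a GFP and Cre. Krt19, a keratin gene, made up most of it, while Epcam and Cdh1, which define epithelial cells, stayed under 1 CPM in all libraries. Of 10 fibroblast markers Col1a1, Col1a2, Col3a1, Pdgfra, Pdgfrb and Twist1 fell with Cre in Vhl cells and none rose, with sums of 29314 to 31170.2 CPM in GFP and 21899 to 24289.6 in Cre libraries. In the Vhl/Rassf1a genotype Dcn rose and Pdgfrb fell, and the sums, 21773 to 28407 and 22374 to 24338 CPM, overlapped. In WT cells 1 of the 10 rose with Cre (highest log2 fold change 0.80, background 0.833%) and none fell. Set against the WT effect, the Cre effect in Vhl/Rassf1a cells was more positive for none (highest difference 0.14). It was more negative for 1 (background 7.4%). The part of these markers in the results was not tested.

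Finally, the genes whose pattern over the 24 libraries was most like that of each gene were listed, by Pearson's r of log2 CPM among 10220 genes with a mean CPM of at least 5. Libraries of a group share their cells, so these values describe mainly differences between 8 group means. Nearest to Apln were Abcb10 (r = 0.981), a mitochondrial transporter, and Kcnf1 (0.967), a potassium channel subunit. Nearest to Adm were Maff (0.987), a small Maf transcription factor, and Lims2 (0.986), a focal adhesion protein. Edn1 was nearest to Dusp4 (0.955), a MAP kinase phosphatase, and Serpinb9b (0.951). For Stc2 the nearest were Adipor2 (0.972), an adiponectin receptor, and Hpse (0.971), heparanase, and for Stc1 they were Sh3yl1 (0.944) and Gng11 (0.943). Ptprb was nearest to Gpr149 (0.946) and Zfp7 (0.941), Angpt1 to Lpar1 (0.939) and Morc4 (0.928), and Angptl4 to Glis3 (0.929) and Bicc1 (0.921). Angptl2 was nearest to Fam20a (0.923) and Sorbs3 (0.921). The lowest values were those of Angpt2, 0.83 for Nfkbiz and 0.698 for Epas1, the gene of a hypoxia-inducible factor alpha subunit.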

How the data were processed

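Total RNA of 24 libraries was sequenced. The authors deposited raw counts per Ensembl gene ID, whole numbers that sum to 29.9 to 55.8 M per library. Per the labels' protocols, RNA came from a NucleoSpin kit and libraries from a TruSeq Stranded kit. The submitters' processing notes name Trimmomatic 0.38, STAR 2.5.2b and GRCm38. How reads were counted, with which annotation and strand setting, is not given in the sources used here. Reads in bases shared by genes on opposite strands therefore could not be told apart. Besides Mcph1 with Angpt2, this concerns Gm28863 with Adm, Gm17473 with Angpt1 and Ralgps1 with Angptl2. Group means of Gm28863, Gm17473 and Ralgps1 were 0.12 to 0.43, 0 to 0.034 and 5.24 to 6.06 CPM. Symbols and gene coordinates came from an annotation of GRCm38, which named 45143 of 45706 IDs.

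Groups and replicate numbers came from the sample titles. Genes were filtered with filterByExpr of edgeR 4.0.16 (minimum count 10, minimum total 15), which left 16573. One quasi-likelihood model with 8 group means, TMM scaling and 16 residual degrees of freedom was fitted in R 4.3.3 to all 24 libraries (common biological coefficient of variation 7.73%). It was then run on simulated data built from the means and spread of that fit. P-values were two-sided, Benjamini-Hochberg adjusted over all genes within each of 13 comparisons, with a threshold of 0.05. Two-group comparisons of Vhl/Rassf1a with Vhl libraries (GFP, and Cre) were added after seeing the data. The SE of a log2 fold change is its size over the square root of F, intervals are 95%, and CPM uses TMM library sizes.

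The 10 genes and all lists were chosen with earlier results of these data known. Which values guided the choice is not recorded. For the 10 genes, p-values of comparisons that include Vhl or Vhl/Rassf1a libraries are therefore printed only where an alternative lost or gained a call. They show how calls depend on the setting and are not used as support. The p-values of the 10 genes in WT and Rassf1a libraries are descriptions too, since the choice may have used those values. Lists were partners of apelin, adrenomedullin, endothelin, angiopoietins, angiopoietin-like proteins and stanniocalcins, and markers of endothelial, mural, fibroblast, macrophage, proximal tubule and epithelial cells. Macrophage markers summed to 3.83 to 7.12 CPM over the libraries, and epithelial markers to 37.7 to 200.9 CPM, with Epcam and Cdh1 under 1 CPM throughout. Named partners are up to 10 past the threshold with the smallest adjusted p in Vhl or Vhl/Rassf1a cells, plus Aplnr, Calcrl, Ramp2, Ednra, Ednrb, Tek and Tie1; Ece1 was chosen after its values were seen. For each of the 10 genes the 2 genes of nearest pattern were named.

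Same-numbered replicates of different groups did not deviate together: the correlation of their deviations was -0.602 to 0.42, over 0.1 in 5 of 12 pairs, so numbers were not taken as pairs. No replicates agreed within sampling noise (chi-square over its degrees of freedom at least 2.78). The 30 alternatives were DESeq2 size factors, DESeq2 1.42.0 with its Wald test, no filter, a replicate block, only the groups compared, each of 24 libraries left out, and both libraries that stood apart left out.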

Additional observations from a re-analysis of the deposited data

Results flagged for a closer look

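All values here are differences of a Cre effect between genotypes on the log2 scale, and each was noted because edgeR's test of that difference, adjusted over 16573 genes, passed the threshold; no explanation was tested. For the 10 genes these values describe genes proposed with their effects in Vhl-altered cells known. The partner list was also drawn up with earlier results of these libraries known.

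Between Vhl and WT cells the effect differed for Stc2 (2.88), Apln (2.62), Edn1 (2.17), Adm (1.49), Ptprb (1.43) and Stc1 (0.98), and in the other direction for Angpt1 (-1.80) and Angpt2 (-0.67). Between Vhl/Rassf1a and WT cells it differed for Stc2 (2.03), Edn1 (1.26), Apln (1.14), Adm (1.12), Stc1 (1.06), Angptl4 (0.39) and Ptprb (0.35), and for Angpt2 (-0.29) in the other direction. Of these, the Angpt2 call was lost under 21 of 30 alternatives and the Angptl4 call under 6.

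Between Vhl/Rassf1a and Vhl cells it differed for Apln (-1.48), Ptprb (-1.08), Edn1 (-0.91), Stc2 (-0.85), Angpt1 (1.06), Angptl4 (0.55) and Angpt2 (0.38). The Angpt1 call was lost under 3 alternatives and that of Angpt2 under 2. Among the partners it differed for Adm2 (-0.99, adjusted p = 0.0167), Angpt4 (0.81, adjusted p = 0.00247), Ednra (0.72, adjusted p = 0.00984) and Igfbp4 (0.45, adjusted p = 0.0184), all by edgeR. Igfbp4, a binding protein that Pappa cleaves, lies outside the naming rule and was chosen after its values were seen.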

How the results depend on the processing

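Over the 10 genes, 13 comparisons and 30 alternatives, 3731 of 3900 values kept direction and side of the threshold, 88 lost a call, 33 gained one, none of those called reversed, and 48 not called changed sign. Of the lost calls 40 were of Angpt2, 10 of Stc1, 9 each of Stc2 and Angpt1, 6 each of Adm, Edn1 and Angptl4, and 2 of Angptl2; no call of Apln or Ptprb was lost.

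Counts of partners with Cre in WT cells moved from 2 to 4 with the DESeq2 Wald test, with no filter, and without both libraries that stood apart, and to 1 to 4 with 1 library left out. In Rassf1a cells the count of the 10 genes moved from 1 to 0 with only the groups compared, and was 0 to 1 with 1 library left out. There the count of partners moved from 1 to 2 with DESeq2 and with no filter, to 0 with only the groups compared, and was 0 to 2 with 1 library left out. Between Vhl/Rassf1a GFP and WT GFP, 2 instead of 6 of the 10 genes passed with only the groups compared. The cause of these moves was not tested. With only the groups compared, the fit also had fewer samples than the fit to all 24 libraries.

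A replicate block gave 9 of the 10 genes in Vhl cells and 8 in Vhl/Rassf1a cells, as without it. It lost Angpt2 in Rassf1a GFP against WT GFP (adjusted p = 0.0597) and in the Vhl/Rassf1a against WT Cre effect (adjusted p = 0.0585, both by edgeR), and changed no other call of the 10 genes; 3 of 12 same-numbered GFP and Cre library pairs had a higher correlation than with any other number. Depth limits Edn2, Calcb, Ramp2, Aplnr and Tie1, which held few counts.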
